A study of Mus musculus with 59 samples.

Results

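The genes described here encode the repressors of the circadian clock that could be followed by name: the period genes Per1, Per2 and Per3, the cryptochrome genes Cry1 and Cry2, the REV-ERB nuclear receptors Nr1d1 and Nr1d2, Ciart, and the basic helix-loop-helix factors Bhlhe40 and Bhlhe41. They were chosen by name, and every probe whose accession maps to one of these symbols was taken. This gave 11 probes for 10 genes, out of 55681 probes for 37163 genes or transcripts on the array. Bhlhe41 (NM_024469) had 2 probes and the others had 1 each: Nr1d1 (NM_145434), Nr1d2 (NM_011584), Ciart (NM_001033302), Per1 (NM_011065), Per2 (NM_011066), Per3 (NM_011067), Cry1 (NM_007771), Cry2 (NM_009963) and Bhlhe40 (NM_011498). The mapping was by RefSeq accession, so probes under other accessions were not taken. The study's gene list for BbF forestomach names a further Nr1d2 probe of that kind, raised at the high dose. Of the 2 Bhlhe41 probes, the brighter one stands for the gene below.

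The samples came from male Muta™Mouse, a transgenic strain that carries a lacZ reporter for mutation assays, aged about 16 weeks. The mice received olive oil alone (vehicle control) or 25 (low), 50 (medium) or 100 (high) mg/kg-bw/day of benzo(b)fluoranthene (BbF), a polycyclic aromatic hydrocarbon, in olive oil by oral gavage for 28 days, and lung, liver and forestomach were taken 72 hours after the last dose. BbF is the compound in the sample titles and the dosing protocol, and an exposure label gives benz(a)anthracene instead, so BbF is the name used here. Each of 20 mice (numbered 1 to 5 vehicle, 6 to 10 low, 11 to 15 medium and 16 to 20 high) was profiled in all 3 tissues apart from mouse 7, whose lung was not analysed here, which leaves 4 arrays in low-dose lung and 5 in every other group. Mice were kept under a 12 hour light/dark cycle, and the clock time of collection is not given in the sources used here, so a level cannot be placed on a clock hour. Each value below is a log2 ratio of tissue RNA (Cy5) over a common reference RNA pooled from cell lines (Cy3) and is only as precise as these numbers of arrays allow.

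The mammalian clock is a feedback loop in which CLOCK and ARNTL bind E-box sequences and switch on the genes of their own repressors. The PER and CRY proteins return to the nucleus and stop CLOCK:ARNTL, CIART and the BHLHE factors act on the same E-box genes, and the REV-ERB receptors repress Arntl itself. In peripheral tissues of the mouse the transcripts peak in a fixed order: Nr1d1, Nr1d2, Ciart and Per3 come first, then Per1, Per2, Cry2 and the BHLHE factors, and Cry1 late, with Arntl roughly opposite to Nr1d1. Per1 and Bhlhe40 are also induced quickly by hormones and stress, outside the clock.

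Promoter sequences show how members differ in these control elements. They are RefSeq sequences on GRCm38.p6, from 250 bases before to 50 bases after the gene start, written 5′ to 3′ on the gene's strand. Capitals mark exact matches to 5 motifs searched on both strands: the E-box CACGTG, the related E'-box CACGTT (reverse complement AACGTG), the D-box TTATGTAA bound by DBP, TEF and HLF, the REV-ERB and ROR element TAGGTCA, and the cyclic AMP element TGACGTCA. The motif letters do not overlap one another in these windows. Promoters were found for 8 of the 10 genes, not for Per2 and Bhlhe40, with 2 for Per1 and 1 for each of the others. The 5 shown belong to the member with the most E-boxes, the member nearest in role to Arntl, and 1 or more of each protein family that differ in their motifs.
Ciart (chr3:95882179-95882478, minus strand): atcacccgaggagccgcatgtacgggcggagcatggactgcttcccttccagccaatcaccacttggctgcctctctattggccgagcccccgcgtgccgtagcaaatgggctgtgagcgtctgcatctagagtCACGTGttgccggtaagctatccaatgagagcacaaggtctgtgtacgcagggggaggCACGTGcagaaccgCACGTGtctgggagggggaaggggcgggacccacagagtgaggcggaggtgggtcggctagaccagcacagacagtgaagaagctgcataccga
Nr1d1 (chr11:98775328-98775627, minus strand): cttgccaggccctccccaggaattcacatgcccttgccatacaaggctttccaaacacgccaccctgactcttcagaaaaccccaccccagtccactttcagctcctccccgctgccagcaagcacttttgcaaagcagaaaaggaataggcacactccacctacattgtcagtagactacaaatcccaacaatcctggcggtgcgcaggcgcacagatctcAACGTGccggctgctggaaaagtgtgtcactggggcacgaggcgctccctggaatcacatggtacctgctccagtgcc
Per1 (chr11:69098699-69098998, plus strand): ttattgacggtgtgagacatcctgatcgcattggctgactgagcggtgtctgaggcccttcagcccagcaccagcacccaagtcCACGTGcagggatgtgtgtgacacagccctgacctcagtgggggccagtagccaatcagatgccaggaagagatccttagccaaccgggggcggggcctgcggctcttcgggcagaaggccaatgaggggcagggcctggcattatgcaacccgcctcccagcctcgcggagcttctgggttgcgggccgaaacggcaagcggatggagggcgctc
Per3 (chr4:151044616-151044915, minus strand): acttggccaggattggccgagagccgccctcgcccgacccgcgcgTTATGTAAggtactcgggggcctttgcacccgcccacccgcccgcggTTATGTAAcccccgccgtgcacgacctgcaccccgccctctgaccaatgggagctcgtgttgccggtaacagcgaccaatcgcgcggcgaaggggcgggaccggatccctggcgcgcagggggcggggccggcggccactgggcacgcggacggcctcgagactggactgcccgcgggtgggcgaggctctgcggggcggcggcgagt
Cry1 (chr10:85185005-85185304, minus strand): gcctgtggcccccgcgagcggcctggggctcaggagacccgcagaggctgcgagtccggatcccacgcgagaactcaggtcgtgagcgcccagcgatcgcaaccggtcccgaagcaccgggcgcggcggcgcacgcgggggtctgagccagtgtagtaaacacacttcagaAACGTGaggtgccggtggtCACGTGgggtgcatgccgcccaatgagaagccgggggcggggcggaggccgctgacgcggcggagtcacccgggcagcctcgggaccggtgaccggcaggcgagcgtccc
Ciart held 3 E-boxes, 116, 58 and 44 bases before its start. Per1 held 1 at 166 bases in the promoter printed and no motif in its other one (chr11:69099902-69100201), Cry1 1 at 60 bases together with an E'-box at 79 bases, and Bhlhe41, not printed, 1 at 153 bases. An E-box stood in 4 of the 8 members and in 8.09% of the 27025 genes with a promoter. The E'-box stood in Nr1d1 (28 bases before the start), Cry1 and Cry2 (166 bases), which is 3 of 8 against 5.44% of all genes. The D-box occurred only in Per3 among the 8, as 2 copies 205 and 158 bases before the start, against 1.11% of all genes. TAGGTCA and TGACGTCA were in none of the 9 windows (2.97% and 2.03% of all genes), which says only that these letters are not in these bases.

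The tissue labels were checked first. Lung markers averaged 6.57 to 7.04 in vehicle lung and at most 1.30 in the other vehicle tissues, and liver and forestomach markers were likewise highest in their own tissue. Among lung arrays, forestomach markers (Krt13, Krt4, Krt5, Krt14) averaged between -0.94 and -0.43 on 18 arrays and 3.82 in low-dose mouse 6. In liver, the 8 arrays of the third slide (1 vehicle, 2 low, 2 medium and 3 high) had at most 12.9% of probes well above background, against 37.1% to 46.1% on the other liver slides. The low-dose call in lung is therefore also given without mouse 6, and the high-dose changes in liver without that slide. A gene was called when its Benjamini-Hochberg adjusted p (limma, over all probes) was 0.05 or less and its change at least 1.5-fold. In bulk tissue, fewer cells of a type and less RNA per cell cannot be told apart.

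In lung, 5 of the 10 clock repressors rose at the high dose against 1.25% of all genes called up: Per2, Nr1d2, Ciart, Per3 and Nr1d1. The same number, with Bhlhe40 in place of Nr1d1, had a lowest high-dose lung above the highest vehicle lung, against 4.26% of all genes. At the low and medium doses, 1 and 2 members were called up (0.409% and 0.455% of all genes), and 3 and 2 members had groups that did not overlap (2.64% and 2.14%). The median change of the 10 members was 0.32, 0.41 and 0.69 on the log2 scale at the low, medium and high dose, where the median of all genes lay within 0.003 of 0. No member was called down (0.0242%, 0.129% and 0.503% of all genes). Within the 3 lung slides the high-dose change ran from 0.92 to 1.67 for Per2, 0.95 to 1.14 for Nr1d2, 0.66 to 1.19 for Ciart, 0.83 to 1.02 for Per3 and 0.60 to 1.02 for Nr1d1.

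**Figure D1:**
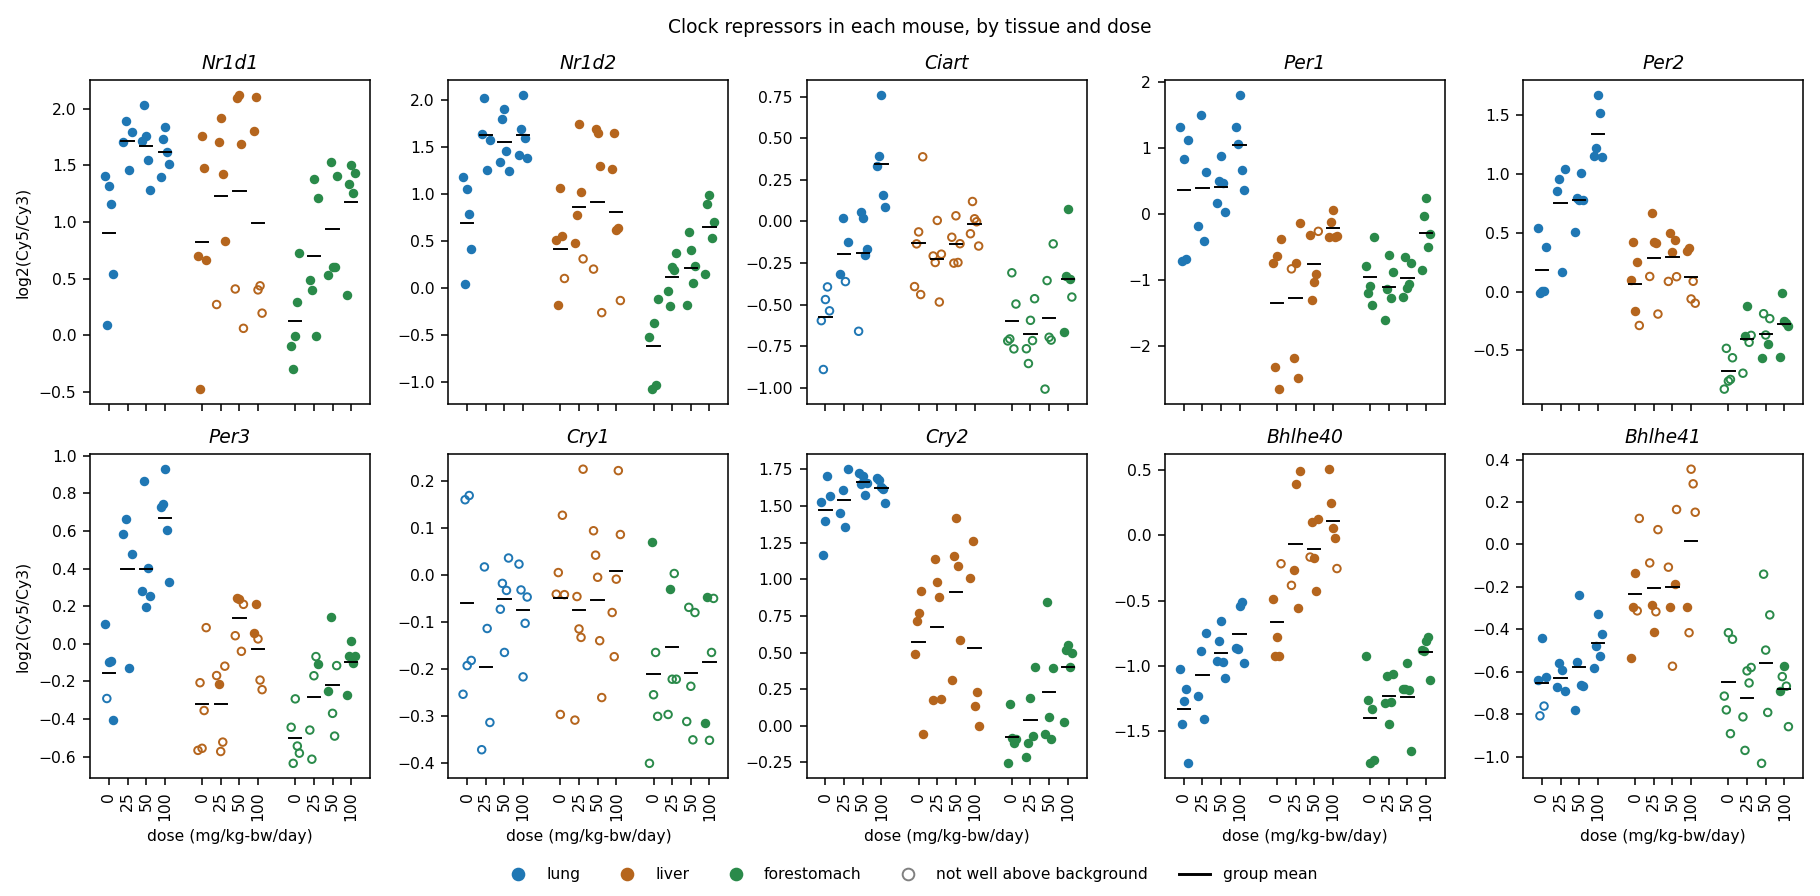
Log2(Cy5/Cy3) of each of the 10 members (panels) in each mouse (points) by dose group and tissue, with the group mean as a bar. In lung the high-dose points of Per2, Per3 and Ciart sit above all vehicle points, and in liver the open points of Nr1d1 (not well above background) lie between 0.06 and 0.44.

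Per2, which encodes the period protein that sets much of the loop's timing, had the largest high-dose change with loess (with median centring Nr1d2, at 1.25, exceeded Per2, at 1.15). Its log2 ratios in lung were 0.54, -0.01, 0.00, 0.00 and 0.38 in vehicle mice 1 to 5 and 1.15, 1.22, 1.67, 1.51 and 1.14 in high-dose mice 16 to 20. In between lay the low-dose values of 0.85, 0.96, 0.16 and 1.04 and the medium-dose values of 0.50, 0.80, 0.78, 1.01 and 0.78. The vehicle and high-dose groups were separated by a gap, while low-dose mouse 9 and medium-dose mouse 11 fell within the vehicle range. The rise at the high dose was 1.16 ± 0.16 (SE, adjusted p 0.000109), or 2.23-fold. At the low and medium doses the changes were 0.57 ± 0.16 (adjusted p 0.152) and 0.59 ± 0.16 (adjusted p 0.0529). The slope over dose was called, with a fitted change from 0 to 100 mg/kg-bw/day of 1.08 ± 0.16 (adjusted p 0.000178, 1.48% of all genes called for slope).

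Per3, a period protein that the loop can run without, followed the same order of groups. Vehicle lungs gave 0.10, -0.29, -0.10, -0.09 and -0.41, and high-dose lungs 0.73, 0.74, 0.93, 0.61 and 0.33. Every high-dose lung lay above every vehicle lung, and the same was true of the medium dose (0.28, 0.86, 0.19, 0.40 and 0.25). The rise was 0.82 ± 0.15 at the high dose (adjusted p 0.00176), and the changes were 0.56 ± 0.15 at the medium (adjusted p 0.0612) and 0.56 ± 0.16 at the low dose (adjusted p 0.148), where mouse 9 at -0.13 stayed among the vehicle values.

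Per1, the period gene that also answers to glucocorticoids, was the most scattered member. Vehicle lungs fell into high values in mice 1, 3 and 5 (1.31, 0.83 and 1.12) and low values in mice 2 and 4 (-0.72 and -0.69). The high-dose values of 1.31, 1.06, 1.80, 0.67 and 0.37 overlapped the upper ones. The change of 0.67 ± 0.40 (adjusted p 0.400) was not called, and its 95% interval ran from -0.153 to 1.495. Mice 2 and 4 were also the lowest vehicle mice for Per1 in liver and in forestomach.

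Both REV-ERB genes, which encode heme-binding receptors, were called below the high dose as well. Nr1d2 gave 1.18, 0.04, 1.05, 0.79 and 0.42 in vehicle lung. The low-dose values were 1.64, 2.03, 1.26 and 1.57, the medium-dose values 1.34, 1.80, 1.91, 1.47 and 1.25, and the high-dose values 1.42, 1.70, 2.06, 1.60 and 1.39. All 14 exposed lungs exceeded the highest vehicle lung, and the 3 dose groups overlapped one another. The rises were 0.93 ± 0.21 (adjusted p 0.0347), 0.86 ± 0.19 (adjusted p 0.0252) and 0.94 ± 0.19 (adjusted p 0.00487), and the slope over dose was not called (0.77 ± 0.24, adjusted p 0.0577). Without low-dose mouse 6, whose lung carried forestomach markers, the low-dose change of Nr1d2 was 0.93 with an adjusted p of 0.0940, which ends that call. It was also lost without low-dose mouse 8 or 10 or vehicle mouse 2, 4 or 5 (adjusted p up to 0.144), and the medium-dose call without vehicle mouse 2 or 5 or medium-dose mouse 12 (up to 0.0669).

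Nr1d1 showed a like pattern with one vehicle mouse far below the others. Its vehicle lung values were 1.40, 0.09, 1.32, 1.16 and 0.54, and its high-dose values 1.40, 1.73, 1.84, 1.61 and 1.51. High-dose mouse 16 did not exceed vehicle mouse 1, while the other 4 did. The rise was 0.72 ± 0.19 at the high dose (adjusted p 0.0295) and 0.77 ± 0.19 at the medium dose (adjusted p 0.0445), and the change at the low dose was 0.81 ± 0.21 (adjusted p 0.0826), with each of the 4 lungs above the highest vehicle lung. The high-dose call was lost when vehicle mouse 2 or 5 or high-dose mouse 17, 18 or 19 was left out, with adjusted p up to 0.0800. The medium-dose call was lost in 12 of 19 omissions of a mouse (adjusted p up to 0.112).

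Ciart, a repressor that binds ARNTL and whose promoter holds the 3 E-boxes printed above, gave -0.60, -0.89, -0.47, -0.39 and -0.54 in vehicle lung. Low-dose lungs gave -0.31, 0.02, -0.36 and -0.12, and high-dose lungs 0.33, 0.39, 0.76, 0.16 and 0.09. The high-dose group lay wholly above both, and medium-dose mouse 11 at -0.66 lay within the vehicle range while the other 4 medium-dose lungs (-0.20 to 0.06) lay above it. The rise at the high dose was 0.93 ± 0.14 (adjusted p 0.000294) and the fitted change over the dose range 0.87 ± 0.13 (adjusted p 0.000304). The probe was well above background on 0 of 5 vehicle, 3 of 4 low-dose, 4 of 5 medium-dose and 5 of 5 high-dose lung arrays. Counted against the lowest measurable signal of the vehicle arrays, Ciart was at least 1.64-fold higher at the high dose, 1.12-fold at the medium and 1.20-fold at the low dose.

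The remaining members moved less. Bhlhe40, an E-box binding repressor, gave -1.03, -1.44, -1.27, -1.18 and -1.75 in vehicle lung and -0.86, -0.87, -0.54, -0.51 and -0.98 in high-dose lung. The groups did not overlap, and the change of 0.58 ± 0.14 (adjusted p 0.0138) was 1.495-fold, just under the fold needed for a call. It was called in 6 of 19 omissions of a mouse and in 3 alternative processings. Cry2, a cryptochrome, changed by 0.15 ± 0.09 (adjusted p 0.388), with vehicle values from 1.17 to 1.70 and high-dose values from 1.52 to 1.69. With median centring the change of Cry2 was 0.61 (adjusted p 0.00275), which was called. Cry1, the late cryptochrome, changed by -0.02 ± 0.09 (adjusted p 0.961), with a 95% interval from -0.21 to 0.18, but its probe was well above background on 0 of 19 lung arrays. Bhlhe41 changed by 0.19 ± 0.09 (adjusted p 0.274), and by 0.25 ± 0.08 (adjusted p 0.0793) with its other probe.

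Set in the textbook order of their peaks, the 4 early members were all called up in high-dose lung, against 1.25% of all genes. Their rises ran from 0.72 to 0.94, and Nr1d1 lost its call in 5 of 19 omissions of a mouse. Of the 5 members that peak in the middle, Per2 alone was called, with changes from 0.15 to 1.16. The middle member Bhlhe40 missed the call by its fold alone (1.495-fold, limma adjusted p 0.0138). The late member Cry1 was not called, but its probe was well above background on 0 of 19 lung arrays. Since each mouse was sampled once at an hour that is not known, this order describes the members and gives no estimate of a phase.

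**Figure D2:**
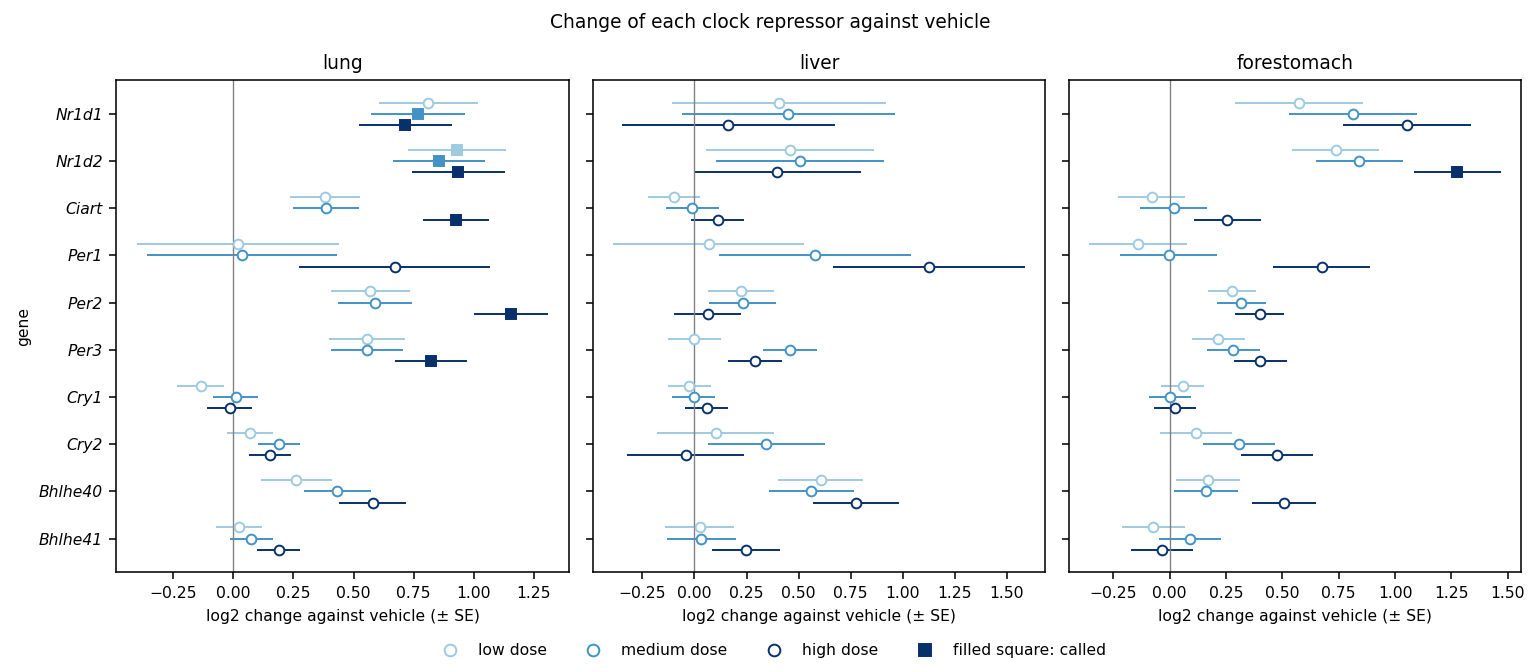
Log2 change of each member against vehicle at the low, medium and high dose in lung, liver and forestomach, with its standard error as a bar and filled squares for called changes. Lung at the high dose holds 5 filled squares, forestomach 1 (Nr1d2) and liver 0.

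The forestomach, the squamous part of the rodent stomach, receives the gavaged dose directly. There 1 of the 10 members, Nr1d2, was called up at the high dose, against 0.0915% of all genes called up and 0.0996% called in either direction, and 0 members by limma at the low and medium doses (0% of all genes in both). At an unadjusted p under 0.05, 2 and 4 members passed at these doses, against 4.63% and 5.76% of all genes. Nr1d2 and Per3 had groups that did not overlap at the high dose (1.33% of all genes in this direction). The median change of the members at the 3 doses was 0.14, 0.22 and 0.44, with 9 of 10 members higher than vehicle at the high dose.

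Nr1d2 gave -0.52, -1.08, -0.37, -1.03 and -0.11 in vehicle forestomach, and 0.14, 0.89, 0.99, 0.54 and 0.70 at the high dose. The low-dose values were -0.03, -0.20, 0.23, 0.20 and 0.37 and the medium-dose values -0.18, 0.59, 0.40, 0.05 and 0.23. The high-dose group was wholly above vehicle, while 1 low-dose and 1 medium-dose mouse fell within the vehicle range. The rise was 1.28 ± 0.19 (adjusted p 0.00769), or 2.42-fold, the call held in all 20 omissions of a mouse, and the change within the 3 slides ran from 1.08 to 1.34. The changes at the low and medium doses were 0.74 ± 0.19 (adjusted p 0.915) and 0.84 ± 0.19 (adjusted p 0.633). The slope was called (fitted change 1.16 ± 0.20, adjusted p 0.0214, 0.0861% of all genes), and was lost without high-dose mouse 17, 18 or 20 (adjusted p up to 0.0841).

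Nr1d1 gave -0.09, -0.30, -0.01, 0.30 and 0.72 in vehicle forestomach and 0.36, 1.33, 1.505, 1.26 and 1.43 at the high dose. High-dose mouse 16 fell within the vehicle range and the other 4 lay clearly above it. The change of 1.05 ± 0.28 (adjusted p 0.212) was not called. With median centring the change of Nr1d1 was 1.17 (adjusted p 0.0325), which was called. The study's gene list for BbF forestomach, from its own test, gives this Nr1d1 probe as raised at the high dose. Mouse 16 was the lowest high-dose mouse for 7 of the 10 members in this tissue, namely Nr1d1, Nr1d2, Ciart, Per1, Per2, Per3 and Cry2. Its Dbp, a clock output gene, was -0.67 where the other high-dose mice had 0.46 to 1.18, and its Arntl was 0.28 where they had -0.41 to -0.24.

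Per2 and Per3 were dim in forestomach. Per2 gave -0.83, -0.48, -0.76, -0.75 and -0.56 in vehicle and -0.56, -0.01, -0.25, -0.27 and -0.29 in high-dose mice, of which mouse 16 overlapped vehicle. Per3 gave -0.44, -0.64, -0.29, -0.54 and -0.58 in vehicle and -0.27, -0.07, 0.02, -0.10 and -0.07 at the high dose, with no overlap. Both were well above background on 0 of 5 vehicle and 5 of 5 high-dose arrays. Per2 was at least 1.27-fold and Per3 at least 1.28-fold higher, with fitted changes of 0.40 ± 0.11 (adjusted p 0.215) and 0.40 ± 0.12 (adjusted p 0.252) that were not called.

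Per1 in forestomach was bright on every array, with -0.79, -1.19, -1.09, -1.38 and -0.34 in vehicle and -0.85, -0.03, 0.24, -0.49 and -0.30 at the high dose. The groups overlapped, and the change of 0.67 ± 0.22 (adjusted p 0.308) was close in size to that in lung. Cry2 changed by 0.48 ± 0.16 (adjusted p 0.332), with high-dose mouse 16 at 0.03 and the others from 0.40 to 0.55. Bhlhe40 changed by 0.51 ± 0.14 (adjusted p 0.230), Ciart by 0.26 ± 0.15 (adjusted p 0.671), Cry1 by 0.03 ± 0.09 (adjusted p 0.971) and Bhlhe41 by -0.03 ± 0.14 (adjusted p 0.974). The last 3 were well above background on 4, 4 and 2 of 20 forestomach arrays, so these changes were measured largely at background level.

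In liver no member was called by limma at any dose or for slope. Of all genes, 0%, 0% and 0.00538% were called at the low, medium and high dose and 0.0161% for slope. The study, with its own test, reported differentially expressed genes in BbF liver at each of these doses, so the few calls here do not mean an unchanged liver. At an unadjusted p under 0.05, 1, 2 and 3 members passed at these doses and 3 for slope, against 3.31%, 4.53%, 8.03% and 9.00% of all genes. Per1 alone had groups that did not overlap at the high dose (0.620% of all genes in this direction). With loess, 9 of 10 members were higher than vehicle at the high dose (median 0.21), whereas with median centring 9 of 10 were lower (median -0.40), so no common direction in liver is fixed by these data. Without the third slide, which leaves 4 vehicle and 2 high-dose livers, 8 were higher and 2 lower (median 0.48) and 1 member, Bhlhe40, was called. Over all 55681 probes, 417 were then called at the high dose, against 2 with all slides.

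Per1 in vehicle liver gave -0.73, -2.31, -0.64, -2.65 and -0.37, and in high-dose liver -0.35, -0.12, 0.06, -0.34 and -0.33. Mice 2 and 4 were again far below the other vehicle mice, and all 5 high-dose livers lay above every vehicle liver. The margin was small, with the lowest high-dose liver at -0.348 and the highest vehicle liver at -0.370. The low-dose livers spread as widely as vehicle (-0.83, -2.18, -0.74, -2.48 and -0.13), and the medium-dose livers less (-0.31, -1.29, -1.03, -0.91 and -0.26). The change of 1.13 ± 0.46 (adjusted p 0.603) was not called. It was 1.35 (adjusted p 0.250) without the third slide, 0.80 (adjusted p 0.391) with the slide as a block and -0.37 with median centring. Within the second slide (2 high-dose and 2 vehicle livers) the change of Per1 was 1.29. Within the third (3 high-dose livers and 1 vehicle liver) it was 0.17.

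Bhlhe40 in liver gave -0.49, -0.93, -0.78, -0.93 and -0.22 in vehicle and 0.51, 0.25, 0.05, -0.02 and -0.25 at the high dose. High-dose mouse 20 overlapped vehicle mouse 5, both on the third slide. The change was 0.78 ± 0.21 (adjusted p 0.348), and without the third slide 1.16 (adjusted p 0.0154). It was -0.49 with median centring.

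The REV-ERB genes in liver differed by slide. On the third slide Nr1d1 ran from 0.06 to 0.83 with a median of 0.41, and on the other slides from -0.47 to 2.12 with a median of 1.73. Vehicle livers gave 0.70, -0.47, 1.76, 1.48 and 0.67, and high-dose livers 1.80 and 2.11 in mice 16 and 17 but 0.40, 0.44 and 0.20 in mice 18 to 20, which were on the third slide. The change over all livers was 0.16 ± 0.51 (adjusted p 0.920), that within the second slide (2 high-dose and 2 vehicle livers) 1.84, and that within the third (3 high-dose livers and 1 vehicle liver) -0.32. For Nr1d2 these 3 values were 0.40 ± 0.40 (adjusted p 0.743), 1.29 and 0.27. On the third slide Nr1d1 was well above background on 2 of 8 arrays and Nr1d2 on 3 of 8, against 12 of 12 for both on the other slides. With the slide as a block the change was 0.76 for Nr1d1 (adjusted p 0.280) and 0.88 for Nr1d2 (adjusted p 0.0674), and without the third slide it was 1.09 (adjusted p 0.252) and 0.97 (adjusted p 0.112). The first slide holds no high-dose liver.

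Per3, Per2, Cry2, Bhlhe41, Ciart and Cry1 changed by between -0.04 and 0.29 in high-dose liver and none passed. Without the third slide Per3 was 0.555 (adjusted p 0.0568), Ciart 0.28, Per2 0.20, Cry1 -0.076 and Bhlhe41 -0.037, and none of these was called. Ciart and Cry1 were well above background on 0 of 20 liver arrays, so their changes of 0.11 ± 0.13 and 0.06 ± 0.10 were measured at background level. Cry2 was above background on 20 of 20, with vehicle values of 0.49, 0.72, 0.77, 0.92 and -0.06 and high-dose values of 1.01, 1.26, 0.14, 0.23 and 0.00. Its change of -0.04 ± 0.28 became 0.30 with the slide as a block and 0.41 without the third slide, neither of which was called.

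**Figure D3:**
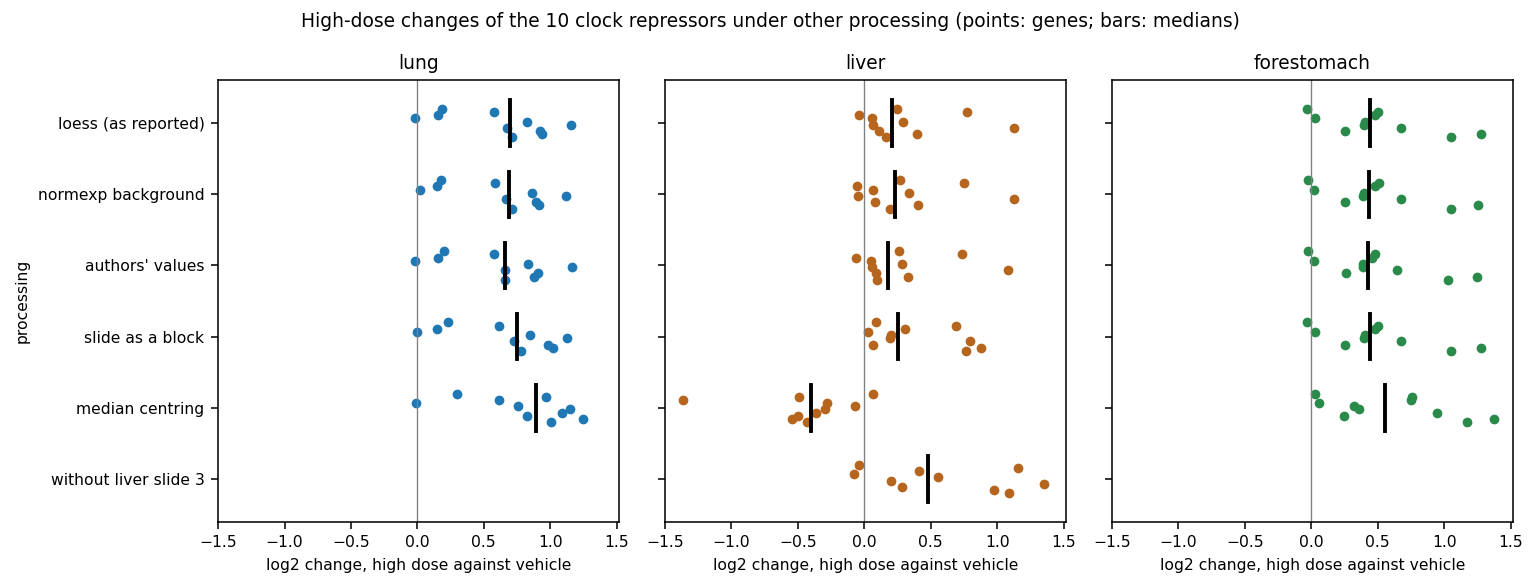
Log2 change against vehicle at the high dose of the 10 members (points) with their median (bars) in lung, liver and forestomach, with 1 row for each processing of the arrays. In lung the medians lie above 0 under every processing shown, while in liver the median is 0.21 with loess and -0.40 with median centring.

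Whether the high-dose change of a member differed between tissues was tested directly. It was larger in lung than in liver for 2 of the 10 members, against 0.320% of all genes with a called larger change in lung. The difference was 1.09 ± 0.21 for Per2 (adjusted p 0.00440) and 0.81 ± 0.20 for Ciart (adjusted p 0.0440). Per2 kept this call in all 10 omissions of a mouse and without the third liver slide (0.95, adjusted p 0.0233), whereas Ciart lost it in 9 of 10 omissions (adjusted p up to 0.155) and without the third slide (0.64, adjusted p 0.295). Ciart was not well above background on any liver array. Between lung and forestomach 0 of 10 members differed (0.525% of all genes), with 0.76 ± 0.21 for Per2 (adjusted p 0.0958) and 0.67 ± 0.20 for Ciart (adjusted p 0.167) as the largest differences. With the slide as a block both were called (0.73 with adjusted p 0.0200, and 0.73 with adjusted p 0.0190). Between liver and forestomach 0 differed (0.0780% of all genes). At an unadjusted p under 0.05 these counts were 3 and 1, against 7.63% and 9.64% of all genes.

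The level of each member also differed between the tissues of vehicle mice. All levels are log2 ratios to the same reference, so only the same gene is compared across tissues. Of the 10 members, 3 were called between lung and liver, 4 between lung and forestomach and 4 between liver and forestomach, against 28.3%, 22.1% and 23.7% of all genes, so the members' share was not far from that of the array as a whole. These calls rest on loess: with median centring 1, 0 and 2 were called.

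Cry2 was ordered lung, liver, forestomach, with means of 1.47 ± 0.20, 0.57 ± 0.38 and -0.08 ± 0.15 (SD, n = 5), and each step was called (adjusted p 0.000206 and 0.00949). Nr1d2 was lowest in forestomach (-0.62 ± 0.42) and did not differ beyond its spread between lung (0.70 ± 0.47) and liver (0.41 ± 0.48). Per2 had the same order, at 0.18 ± 0.26, 0.06 ± 0.29 and -0.68 ± 0.15, with lung and liver not distinguished (adjusted p 0.599), but it was well above background on 0 of 5 vehicle forestomach arrays, so its level there is only a bound. Per1 was highest in lung (0.37 ± 0.99), with forestomach (-0.96 ± 0.41) and liver (-1.34 ± 1.06) not distinguished (adjusted p 0.535). Bhlhe40 was highest in liver (-0.67 ± 0.31), and lung (-1.33 ± 0.28) and forestomach (-1.40 ± 0.35) did not differ beyond their spread (adjusted p 0.847). Without vehicle mouse 5, whose liver array is on the third slide, both Bhlhe40 differences lost their call (-0.45 for lung against liver and 0.54 for liver against forestomach), and without vehicle mouse 4 that of Cry2 between liver and forestomach did (0.55, adjusted p 0.0680). Nr1d1 (0.90 ± 0.56, 0.83 ± 0.87 and 0.13 ± 0.40), Per3, Cry1, Ciart and Bhlhe41 had no called step between tissues.

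The same animals gave all 3 tissues, so the members' deviations from the dose group mean could be set against each other across mice. Over the 30 relations computed (10 genes, 3 pairs of tissues), 0 had an adjusted p of 0.05 or less for Pearson's r. Between lung and forestomach all 10 coefficients were positive, from 0.013 to 0.614 with a median of 0.476 (n = 19). The 19 include low-dose mouse 6, whose lung carried forestomach markers, and its part in these relations was not tested. Several members also varied together across mice, so the 10 coefficients between lung and forestomach are not independent. The strongest rank relation there was that of Bhlhe40, with Spearman's rho 0.744 (permutation p 0.00039, adjusted p 0.0117) beside r 0.603 (permutation p 0.0117, adjusted p 0.144), 0.472 without the 2 mice farthest from the median in lung and 0.661 with the slide removed as well. Per1 had the highest coefficient between lung and liver, r 0.668 and rho 0.554 (permutation p 0.0372 and 0.0617, adjusted p 0.173 and 0.216), which was 0.504 without the 2 farthest mice. With the slide removed it was 0.864 (permutation p 0.00253, adjusted p 0.0475). Mice were still shuffled within dose groups and across slides, so this p is approximate and may be too small.

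Arntl encodes the activator that the REV-ERB receptors repress and that the other members act upon. In the textbook loop its transcript runs roughly opposite to that of Nr1d1, whereas Cry1 peaks late and is not placed opposite to Arntl. The log2 ratios of Arntl in lung lay between 0.15 and 0.94 in vehicle and between -1.66 and -0.89 at the high dose. The fall of Arntl there was -1.75 ± 0.22 (adjusted p 6.11e-05). With dose group removed, so that only differences between mice of one group remain, 30 relations between a member and Arntl were computed, a family chosen after the data had been seen. Arrays of one mouse and tissue give both values, so an array's normalization enters both. In lung 9 of 10 members ran against Arntl (median r -0.524, n = 19) and 5 passed: Bhlhe40 (r -0.699, rho -0.709, adjusted p 0.0304 and 0.0318), Cry2 (r -0.695, rho -0.570, adjusted p 0.0297 and 0.112), Nr1d2 (r -0.612, rho -0.607, adjusted p 0.0185 and 0.0318), Nr1d1 (r -0.583, rho -0.623, adjusted p 0.00774 and 0.0147) and Ciart (r -0.510, rho -0.588, adjusted p 0.0389 and 0.0400). Without the 2 mice farthest from the median in Arntl these were -0.645, -0.521, -0.438, -0.418 and -0.390. With the slide removed as well 7 members passed, Per2 and Per3 in addition (r -0.621 and -0.763, adjusted p 0.0439 and 0.00911).

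In forestomach 9 of 10 ran against Arntl (median r -0.665, n = 20) and 8 passed, the exceptions being Cry1 and Bhlhe40. The steepest were Cry2 (r -0.824, rho -0.802, permutation p 0.00129 and 0.00154, adjusted p 0.00774 and 0.0147), Nr1d1 (r -0.789, rho -0.776, adjusted p 0.00774 and 0.0130) and Per3 (r -0.766, rho -0.756, adjusted p 0.00480 and 0.0130), which stayed at -0.716, -0.705 and -0.722 without the 2 farthest mice. With the slide removed as well, 5 of the 8 passed. Bhlhe40 thus ran against Arntl in lung (-0.699) and not in forestomach (0.178); the difference between these was not tested.

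In liver these relations changed when the slide was removed. Nr1d1 and Nr1d2 gave r -0.035 and -0.041 across all livers (rho -0.101 and -0.075, adjusted p 0.883 for both), and -0.731 and -0.803 with the slide removed (permutation p 8e-05 and 6e-05, adjusted p 0.00075 for both, n = 20). Per2 was the one member that passed before the slide was removed, in the positive direction (r 0.668, rho 0.579, adjusted p 0.0297 and 0.0495), and it gave 0.471 (adjusted p 0.0829) after. In all, 1 member passed without and 4 with the slide removed, and those 4 (Nr1d1, Nr1d2, Ciart and Bhlhe40) were negative.

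**Figure D4:**
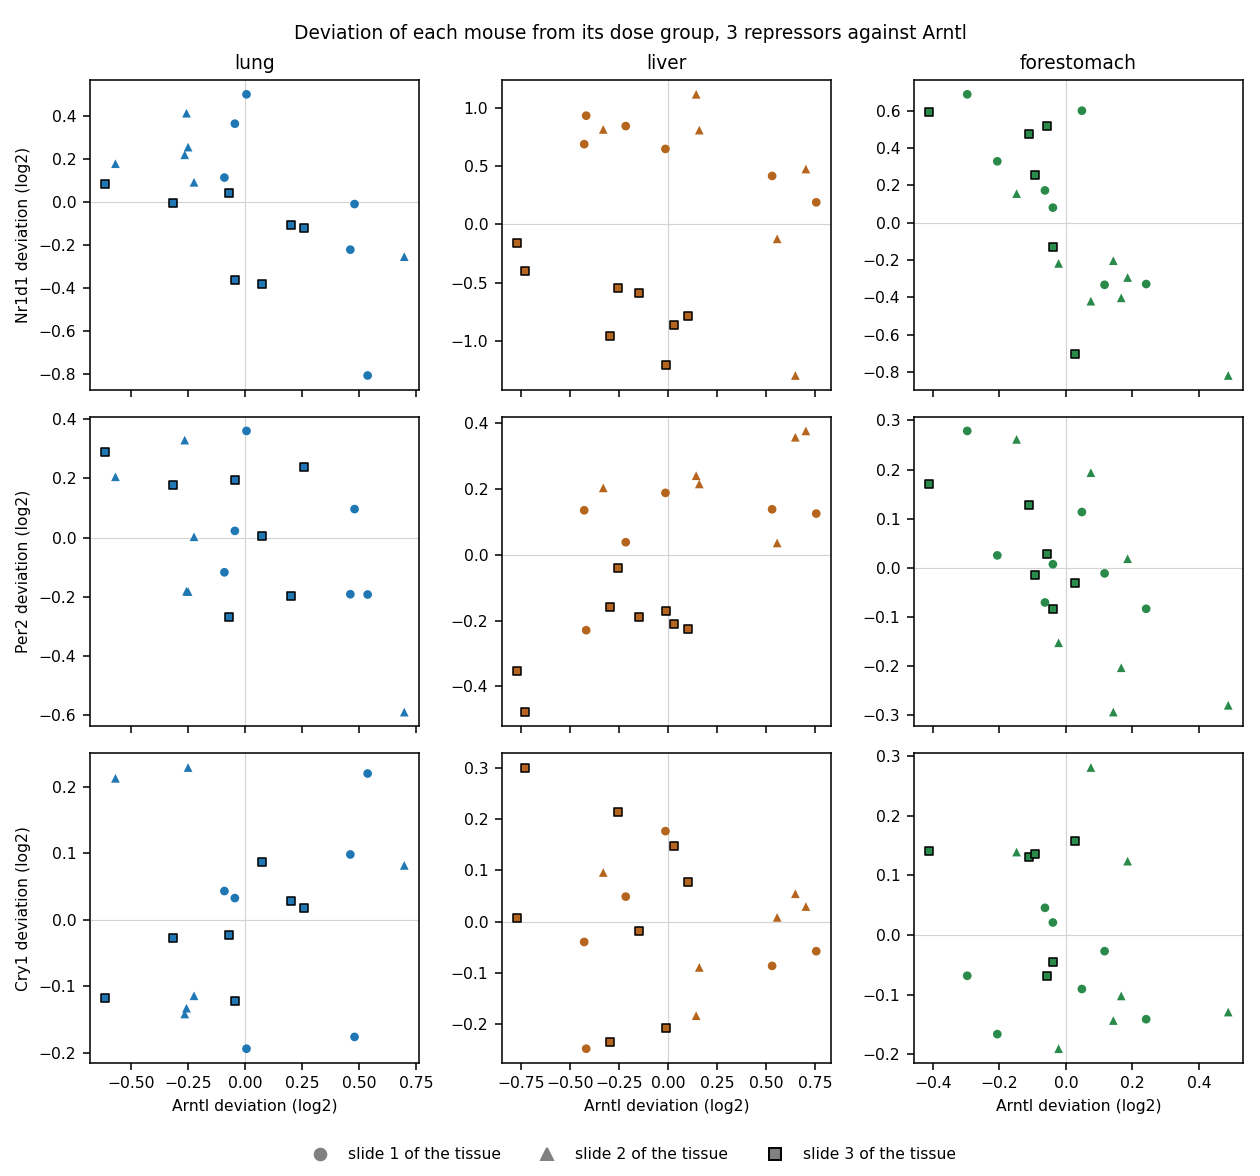
Deviation of Nr1d1, Per2 and Cry1 (rows) from the dose group mean (vertical, log2) against that of Arntl on the same array (horizontal, log2) in lung, liver and forestomach, with a marker shape for each slide of the tissue. In forestomach Nr1d1 slopes downward (r -0.789), and in liver all 8 Nr1d1 points of the third slide lie below 0.

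The genes whose deviations over the 59 arrays, with group and slide removed, were most like those of 3 reference members were ranked among 15125 genes that are no members. For Nr1d1 these were Dbp (r 0.810), Tef (0.733) and Trib3 (0.698), of which Dbp and Tef are clock output factors of the PAR bZIP family. For Per2 they were Tspan4 (0.640), Lonrf1 (0.606) and Bbof1 (0.564), and for Cry1 Psmd2 (0.616), Pef1 (0.585) and the transcript XM_001473757 (0.563). The Cry1 probe was well above background on 0 lung, 0 liver and 4 forestomach arrays, so its likeness rests largely on background signal. The median over all genes was between 0.010 and 0.014. The values share arrays and their normalization, and are a description.

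The other parts of the clock were examined as a list of 18 genes: the activators, the ROR receptors, the output factors, and kinases and ligases that act on PER and CRY. In lung at the high dose 5 rose (Dbp 2.87 ± 0.33, Hlf 0.97 ± 0.18, Tef 0.91 ± 0.17, Timeless 0.90 ± 0.11 and Wee1 0.71 ± 0.20) and 2 fell (Arntl -1.75 ± 0.22 and Nfil3 -1.18 ± 0.15), with adjusted p between 1.66e-05 and 0.0334. The median of the list was 0.04, since 9 were higher and 9 lower. The kinase genes Csnk1d and Csnk1e (-0.06 ± 0.11 and -0.04 ± 0.09) were not called. In forestomach Dbp (2.62 ± 0.38) and Tef (1.14 ± 0.21) rose and Arntl fell by 0.93 ± 0.13, and in liver 0 of 18 passed.

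Per1 and Bhlhe40 answer to glucocorticoids and to acute stimuli, and genes known to do so were set beside them. None of 10 glucocorticoid-induced genes was called at the high dose in any tissue. Of all genes, 1.25% were called up and 0.503% down in lung, 0.0996% in either direction in forestomach and 0.00538% in liver. With so few calls, the lack of one in liver or forestomach says little about these genes. The median change of the glucocorticoid-induced genes was 0.32 in lung, 0.59 in liver and 0.06 for forestomach. None of 10 immediate early genes was called either, with medians of 0.06, 0.77 and -0.14. In liver, where Per1 and Bhlhe40 had the largest changes of the members, 10 of 10 immediate early genes were higher than vehicle, of which Egr2, Egr3 and Fos were not well above background on any liver array. The mean of the immediate early list ran from -2.45 to -0.78 in vehicle liver, with a median of -2.22. In high-dose liver it ran from -2.05 to -0.6, with a median of -0.7. The dim liver slide (slide 3) held 3 high-dose livers and 1 vehicle liver. Its part in the liver medians of these lists was not tested. Nor was the part of the listed genes in the Per1 and Bhlhe40 values tested.

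Some markers of other cell types were also called in lung, while the list means of vehicle and high-dose lungs overlapped. At the high dose 3 of 8 endothelial markers rose (Emcn, Cdh5 and Pecam1), the mean of the list running from 3.89 to 4.37 in vehicle and from 4.23 to 4.82 at the high dose. Of the leukocyte markers 2 of 11 rose, S100a8 among them (list mean 1.60 to 2.19 in vehicle, 1.92 to 2.52 at the high dose), and of the alveolar macrophage markers 1 of 10 did (Marco; 3.37 to 4.44 and 3.56 to 4.38). No muscle or adipocyte marker was called, with 8 of 8 and 6 of 6 lower. The adipocyte list varied most between mice, from 0.26 to 3.67 in vehicle and from 0.54 to 4.30 at the high dose, with Lep not well above background in any lung. In forestomach 0 markers of these 5 lists were called at the high dose. Their part in the changes of the clock repressors was not tested.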

How the data were processed

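Total RNA of each tissue (Cy5) was hybridized with universal mouse reference RNA (Cy3) to 2-colour Agilent arrays. The deposited scanner files hold spot intensity and local background in both dyes (Feature Extraction 10.7.3.1, per the file headers), and the authors also deposited processed log2 ratios, which correlated with r 0.968 to 0.999 with those used here and served as an alternative. Median intensities without background correction gave log2(Cy5/Cy3), to which a loess fit per array was applied (limma 3.58.1, R 4.3.3). Of 62976 spots, 59305 were not controls. Repeated spots were averaged to 55681 probes (484 missing values), of which 26413 matched 20018 symbols by RefSeq accession. A gene is its brightest probe over the 59 arrays. All doses of a tissue shared 1 limma fit with dose group as its term, in place of the study's MAANOVA; trend over dose and differences between tissues had fits of their own. All tests are 2-sided. Alternatives were normexp background correction (offset 50), median centring, the authors' ratios, the slide or the mouse as a block, leaving out each mouse and, added after seeing the data, leaving out the third liver slide or removing the slide from relations. Relations across mice used 100000 permutations within dose groups, with a smallest possible p of 1e-05. Those with the slide removed were also shuffled within dose groups and across slides, so their p values are approximate and may be too small. All 10 members are named, with the 3 most similar genes to Nr1d1, Per2 and Cry1 (detected on at least 75% of arrays) and called genes of the lists. The members and lists were chosen with earlier results of these data known. Mouse numbers mark the same animal in each tissue per the labels; same-mouse deviations across probes had median r of -0.0311 (lung and liver), 0.0345 (lung and forestomach) and 0.0313 (liver and forestomach). Some genes of the marker and clock lists are not reported here.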

Additional observations from a re-analysis of the deposited data

Results flagged for a closer look

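High-dose mouse 16 stood apart in forestomach for 2 members. Its Nr1d1 log2 ratio was 0.358 where the other 4 high-dose mice had 1.26 to 1.51, and its Cry2 was 0.028 where they had 0.40 to 0.55. These were the only such gaps among 120 groups of a member examined, and chance gives about 1 in 20.

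The high-dose change differed between lung and liver for Per2, by 1.093 on the log2 scale (limma, adjusted p 0.00440), and for Ciart, by 0.814 (adjusted p 0.0440). Per2 was well above background on 12 of 20 liver arrays and Ciart on 0 of 20.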

How the results depend on the processing

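With normexp background correction 4 members were called in medium-dose lung, where 276 of 55681 probes were called against 261 in the main setting. In the difference between lung and liver 1 member was called. The high-dose changes of Cry1 in lung (0.021) and Per2 in liver (-0.05) changed sign. With median centring 7 members were called at the high dose and 6 for slope in lung, and 4 and 2 in forestomach. Between vehicle tissues 1, 0 and 2 were called (lung and liver, lung and forestomach, liver and forestomach). Calls rose across the array: median centring called 3503 of 55681 probes in high-dose lung, against 807 in the main setting. For slope in lung these counts were 2644 and 684. In forestomach median centring called 145 probes at the high dose and 45 for slope, against 39 and 34. High-dose liver changes then reversed for Nr1d1 (-0.43), Nr1d2 (-0.54), Ciart (-0.50), Per1 (-0.37), Per2 (-0.295), Per3 (-0.068), Cry1 (-0.28) and Bhlhe40 (-0.49), as did Bhlhe41 in forestomach (0.027). With the slide as a block 5 members were called for slope in lung, where 725 probes were called against 684 in the main setting. In the difference between lung and forestomach 2 members were called, and Cry2 in liver was 0.30. Without the third liver slide, chosen after seeing the data, 1 member was called at the high dose in liver and 2 for slope. Of 55681 probes, 417 and 493 were then called, against 2 and 6 with all slides. In the difference between lung and liver 1 member was called. Without that slide Cry1 (-0.076), Cry2 (0.41) and Bhlhe41 (-0.037) changed sign. With the slide removed, likewise added after seeing the data, 2 relations between tissues, 7 with Arntl in lung, 4 in liver and 5 in forestomach passed. The cause of these shifts was not tested.

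With each mouse omitted in turn there were 0 to 3 called members in low-dose lung, 0 to 3 at the medium and 4 to 6 at the high dose, 3 to 5 for slope, 0 to 0 in liver, 1 to 1 in high-dose forestomach, 0 to 1 for its slope and 1 to 2 in the difference between lung and liver. Low-dose lung had 0 without low-dose mouse 6, 8 or 10 or vehicle mouse 2, 4 or 5, 2 without vehicle mouse 1 and 3 without low-dose mouse 9; medium-dose lung had 0 without vehicle mouse 2 or 5 or medium-dose mouse 12 and 1 without low-dose mouse 8 or 10, medium-dose mouse 14 or high-dose mouse 17, 19 or 20. The slope in lung had 5 without high-dose mouse 16, that in forestomach 0 without high-dose mouse 17, 18 or 20, and the difference between lung and liver 1 in every omission but that of vehicle mouse 4. High-dose changes that crossed 0 ranged from -0.064 to 0.042 for Cry1 in lung, -0.162 to 0.396 for Nr1d1, -0.025 to 0.152 for Per2, -0.004 to 0.104 for Cry1 and -0.224 to 0.092 for Cry2 in liver, and -0.023 to 0.095 for Cry1 and -0.094 to 0.025 for Bhlhe41 in forestomach. With the mouse as a replicate block, which pairs the tissues of an animal, 2, 0 and 0 members were called for differences in effect. Between vehicle tissues 3, 4 and 4 were called. These are the same numbers as without the block, but the estimated correlation within a mouse was 0.00587. The block thus had almost no weight and could hardly change a call. Dim arrays limit what can be measured in liver, where Ciart and Cry1 were never well above background.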
